A study of Mus musculus with 20 samples.

Results

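Of the 9600 spots on an array hybridised with mouse lung RNA, 12 were brighter in mice fed flaxseed without radiation than in every other group. They were chosen from measured values. On the authors' deposited table, taken as log2(value + 0.6) and averaged over the 5 arrays of a group, a member had to lie more than 0.7 above untreated, irradiated, and flaxseed-fed irradiated lungs alike. Radiation alone had to lie within 0.4 of untreated. A margin of 0.7 corresponds to 1.62-fold on that scale. The 12 are gene3907, gene5005, gene3965, gene5478, gene6521, gene1546, gene7345, gene6057, gene1655, gene4725, gene7022 and gene6399, in order of their smallest margin. The names are spot labels of the array; the files do not pair them with genes, so no gene, function, sequence or cell type is given for any of them, and the labelled tissue could not be set against its markers.

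The series crossed diet and chest irradiation in C57BL/6 mice, an inbred laboratory strain, with 5 lungs and 5 arrays per group. The untreated group (U) received neither treatment, and the flaxseed group (F) received a diet with 10% flaxseed over 21 days. The radiation group (R) received 13.5 Gy to the thorax and was killed 48 hours later, and the combined group (FR) received the diet and then the same radiation. The labels name no sex, no age and no diet for the mice without flaxseed. Each array carries its own mouse number, and housing or processing groups are not stated.

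Flaxseed is a plant seed rich in an omega-3 fatty acid, alpha-linolenic acid, and in lignans, which gut bacteria convert to mammalian lignans. Chest radiation damages lung cells directly and through reactive oxygen species, and an inflammatory phase and scarring can follow over weeks to months. For each array lung RNA was reverse transcribed into a target carrying 33P, a radioactive form of phosphorus, so a spot's brightness reflects how much target bound to it. In whole lung, fewer cells of a type and less RNA per cell cannot be told apart.

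The arrays had a median signal of 75.3 to 125.8 scanner units and a median local background of 15.02 to 23.81. The 12 members were bright. Over the arrays their median ratio of signal to local background was 19.04 to 49.98, against 4.65 to 6.53 over all spots, and the lowest member value on any array was 5.23 times its background. By mean brightness they ranked from the 71.6th to the 96.1st percentile of all spots, with 10 of 12 among the brightest 1920 spots. Their SD within groups had a median of 0.37 (log2), close to the 0.36 of those 1920 spots and above the 0.23 of all spots.

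Levels of single arrays are given below as multiples of the array's median spot, that is, signal minus local background divided by the array median of that difference. Differences between groups are given in log2 after normexp background correction with an offset of 50 and quantile normalization, from a limma fit over all 9600 spots, with standard errors (SE). The second scale shrinks differences of dim spots, and it gives every array the same distribution of brightness. Since the rule used flaxseed against each other group, those differences describe the choice and carry no test.

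**Figure D1:**
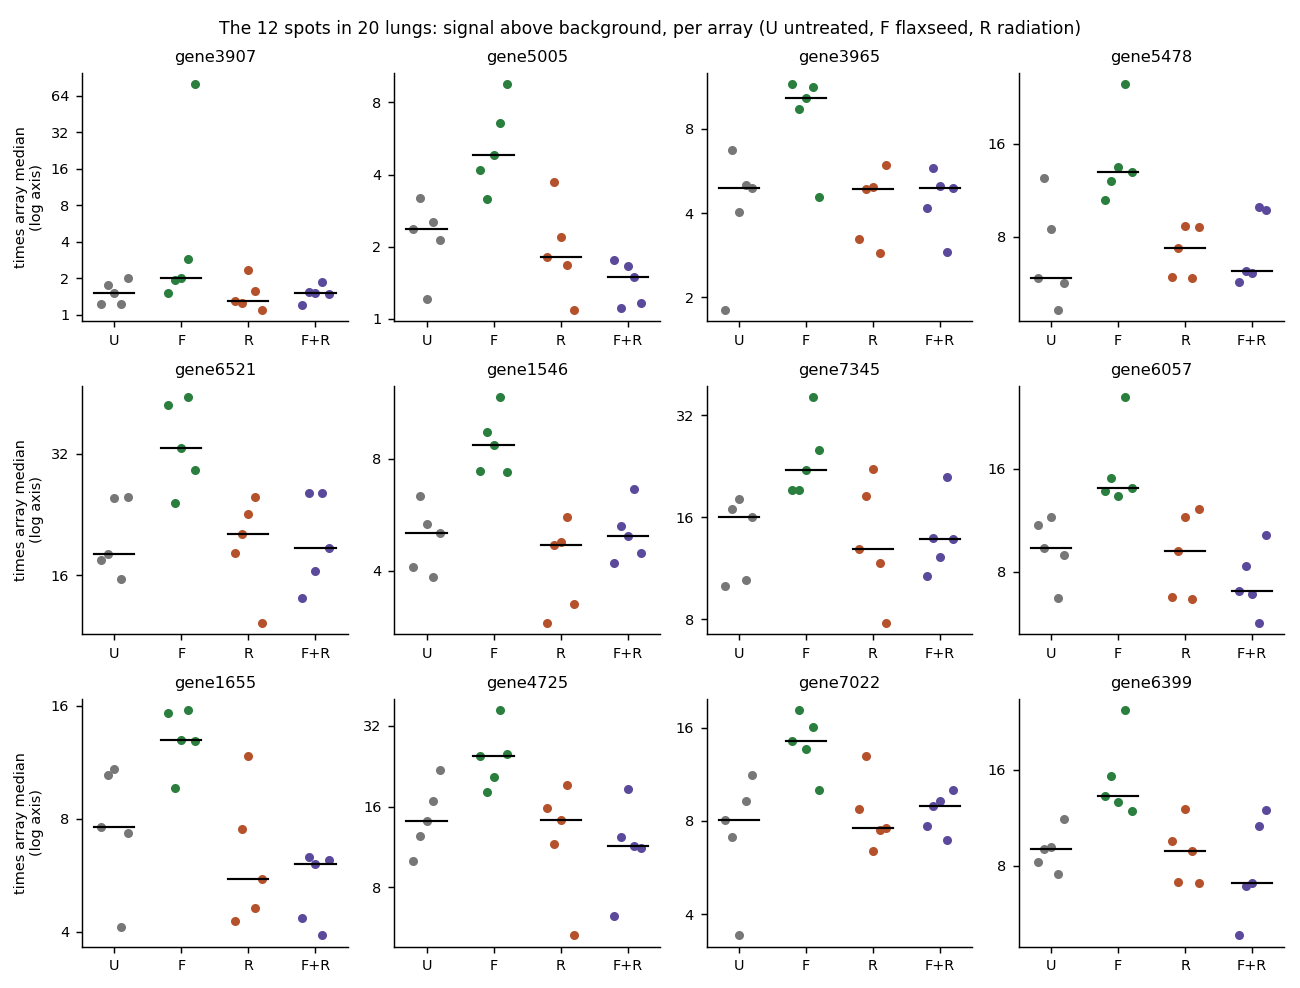
Signal above local background of the 12 spots on each of 20 arrays, as multiples of the array median on a log axis that differs between panels; points are arrays and lines are group medians. In gene3907 a single flaxseed array at 79.5 stands far above the other 19, while gene1546 and gene6057 have all 5 flaxseed arrays above the rest.

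The member with the widest gap to the combined group was gene5005, one of the dimmer 2 members. In flaxseed-fed lungs it stood at 4.17, 3.17, 4.81, 6.55 and 9.5 times the array median in replicates 1 to 5. Untreated lungs gave 2.38, 3.2, 1.21, 2.54 and 2.14, irradiated lungs 1.82, 3.72, 2.2, 1.68 and 1.09, and lungs with both treatments 1.77, 1.11, 1.66, 1.49 and 1.17. The combined group was thus the lowest, and all of its 5 arrays lay under all 5 flaxseed arrays, whereas untreated replicate 2 and radiation replicate 2 lay above flaxseed replicate 2 on this scale. After quantile normalization all 5 flaxseed arrays lay above the 15 others. Flaxseed exceeded untreated by 1.08 ± 0.24, radiation by 1.23 ± 0.24 and the combined group by 1.55 ± 0.24 (log2, SE), the last being 2.94-fold.

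Spots gene1546 and gene6057 were the 2 members whose flaxseed arrays lay above all 15 others on both scales. For gene1546 the flaxseed values were 7.4, 9.46, 8.69, 11.7 and 7.39 times the array median. The other 15 arrays ran from 2.9 to 6.65, with group medians of 5.05 untreated, 4.7 with radiation and 4.95 with both treatments. The ranges of these 3 groups overlapped, at 3.84 to 6.37 untreated, 2.9 to 5.56 with radiation and 4.19 to 6.65 with both treatments. Flaxseed exceeded untreated by 0.88 ± 0.17, radiation by 1.10 ± 0.17 and the combined group by 0.85 ± 0.17 (log2, SE).

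For gene6057 the flaxseed values were 13.7, 15.1, 13.4, 25.9 and 14.1 times the array median. Untreated lungs ran from 6.68 to 11.6, irradiated lungs from 6.67 to 12.2, and lungs with both treatments from 5.67 to 10.3. Replicate 4 was far above the other 4 flaxseed arrays, which lay close together just over the highest irradiated array. Flaxseed exceeded untreated by 0.78 ± 0.18 and the combined group by 1.12 ± 0.18 (log2, SE).

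In gene1655 the untreated and flaxseed ranges touched. Flaxseed values were 15.4, 9.64, 13.0, 15.6 and 12.9 times the array median, and untreated values 7.63, 10.5, 10.9, 4.11 and 7.35. Irradiated lungs gave 4.26, 7.5, 11.7, 4.61 and 5.52, and lungs with both treatments 4.34, 6.34, 6.08, 3.91 and 6.22. Flaxseed replicate 2 thus lay under 2 untreated arrays and 1 irradiated array. The combined group had the narrowest range of multiples, with a median of 6.08 against 5.52 with radiation. In quantile-normalized log2 the flaxseed group was the tightest, with an SD of 0.15 against 0.28 in the combined group. After quantile normalization the flaxseed arrays lay above all others, by 0.82 ± 0.23 on average over untreated and 1.33 ± 0.23 over the combined group (log2, SE).

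Spot gene6399 met the rule by the smallest margin, 0.704. Its flaxseed values were 13.2, 15.3, 12.7, 24.6 and 11.9 times the array median. Untreated lungs ran from 7.57 to 11.2, irradiated lungs from 7.09 to 12.0 and lungs with both treatments from 4.84 to 12.0. Flaxseed replicate 4 was again apart from its group, and replicate 5 lay just under the highest irradiated and combined arrays.

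For 2 members a single flaxseed array went its own way. In gene3907 flaxseed replicate 5 stood at 79.5 times the array median, and the other 4 flaxseed arrays stood at 1.53, 1.93, 2.01 and 2.92. All 15 arrays of the other groups lay between 1.1 and 2.35, so that replicates 1 to 3 lay inside that range and replicate 4 above it. The signal of that 1 spot was 6605 scanner units against 105.5 to 218.1 on the other 19 arrays, and its local background was 106.4 against 12.7 to 23.3. The 4 spots next to it in the assumed layout had 0.4 to 8.39 times the median and a local background of 13.4 to 28.1 on the same array. Without flaxseed replicate 5 the smallest margin of gene3907 fell to 0.32, under the rule's 0.7. The spot is therefore left out of the averages per array given further on, a choice made after its values were seen, but not out of the counts and medians over 12 members.

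In gene3965 the single array lay low instead. Flaxseed replicates 1 to 4 stood at 11.5, 9.45, 10.3 and 11.3 times the array median, and replicate 5 at 4.57. The other groups had medians of 4.9 untreated, 4.87 with radiation and 4.92 with both treatments, and their highest array, in the untreated group, reached 6.73. So 4 flaxseed arrays lay together above all others and replicate 5 lay inside the range of the rest. The mean difference from untreated was 1.09 ± 0.26 (log2, SE), or 2.13-fold.

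The other 5 members each had 4 of 5 flaxseed arrays above all 15 others after quantile normalization. Spot gene5478 ran from 10.5 to 24.8 times the median with flaxseed against 4.66 to 12.4 untreated, and gene7022 from 10.0 to 18.2 against 3.41 to 11.3. Brighter still, gene6521 ran from 24.2 to 44.1 against 15.7 to 25.05, gene4725 from 18.2 to 36.5 against 10.1 to 21.9, and gene7345 from 19.2 to 36.1 against 10.0 to 18.1. After quantile normalization a single array reached into the flaxseed range of each. It was untreated replicate 2 for gene5478, radiation replicate 2 for gene7022 and radiation replicate 3 for gene7345. For gene6521 and gene4725 it was radiation replicate 4. No one control array therefore set the overlap on that scale. As multiples of the array median more arrays overlapped. In gene6521 untreated replicates 3 and 5 stood at 24.9 and 25.05, radiation replicate 4 at 24.9, and combined replicates 2 and 4 at 25.6 each. All of these lay above flaxseed replicate 2 at 24.2. In gene7345 radiation replicate 3 stood at 22.3, above flaxseed replicates 1, 2 and 3 at 19.3, 19.2 and 22.0. Combined replicate 4 stood at 21.1, above flaxseed replicates 1 and 2.

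Over all 12 members the flaxseed mean exceeded untreated by 0.75 to 1.25 (log2, median 0.85), radiation by 0.83 to 1.28 (median 1.04) and the combined group by 0.81 to 1.55 (median 1.01). The upper ends against untreated and radiation are those of gene3907, and without it they were 1.09 (gene3965) and 1.23 (gene5005). The median over all 9600 spots was 0.00, 0.01 and 0.00 for these differences. All 5 flaxseed arrays lay above all 5 untreated arrays in 9 of 12 members (1.69% of all spots), above all 5 irradiated arrays in 6 (2.42%) and above all 5 combined arrays in 10 (2.69%). They lay above all 15 others in 5 members (0.302% of all spots). On the scale of multiples of the array median the last count was 2 (0.104%). These counts follow from the rule and are given as description.

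**Figure D2:**
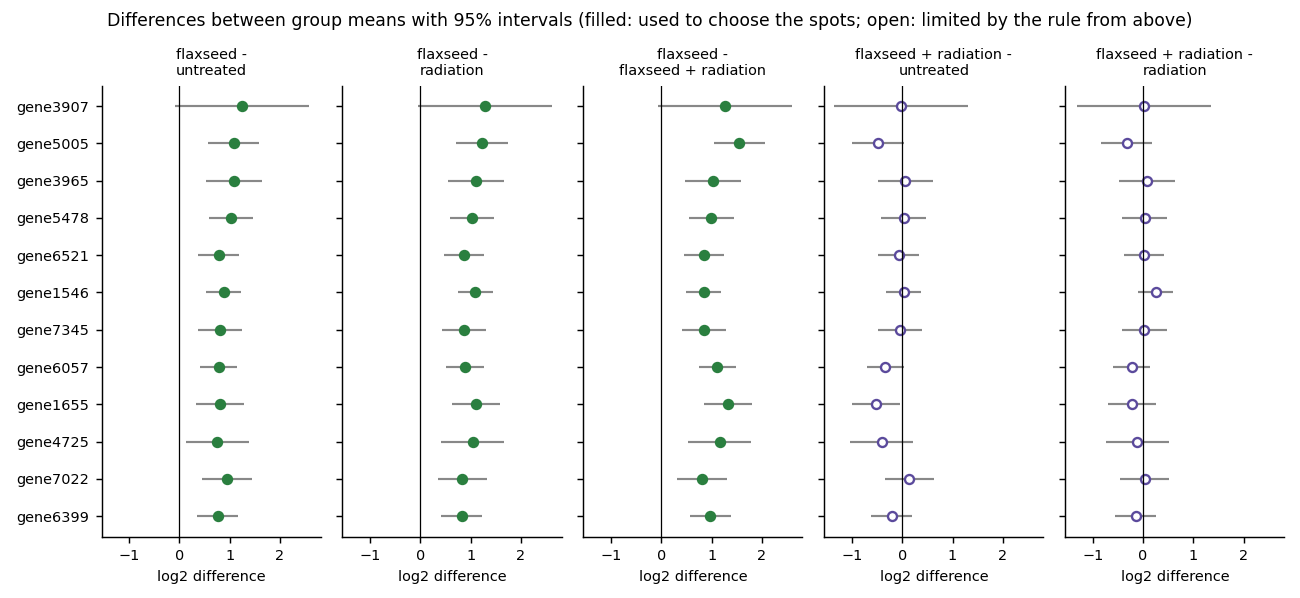
Log2 differences between group means for the 12 spots with 95% intervals from the limma fit; filled points are comparisons the rule used and open points are comparisons it only limited from above. The open points lie between -0.51 and 0.25.

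The rule made no direct use of the combined group against untreated or against radiation, but it limited both from above. Since flaxseed had to exceed the combined group by 0.7, the combined group could exceed untreated by at most the member's own flaxseed difference less 0.7. On the rule's scale that limit was 0.00 for gene6399 and 0.02 for gene4725, 0.60 for gene3907 and 0.06 at the median. A rise with flaxseed and radiation together was thus nearly closed off for most members by their choice, and the counts and p-values that follow are no independent evidence of its absence. In lungs with both treatments 0 of 12 members passed in limma against untreated (0.0312% of all 9600 spots), and 1 of 12 had an unadjusted p under 0.05 (7.58% of all spots). That member, gene1655, differed by -0.51 ± 0.23 (log2, SE; limma adjusted p = 0.615). Next came gene5005 at -0.48 ± 0.24 (limma adjusted p = 0.694). Among members above 0, gene7022 stood at 0.14 ± 0.24 and gene3965 at 0.07 ± 0.26 (limma adjusted p = 0.952 and 0.984). In all, 4 members had a higher and 8 a lower mean than untreated, with a median of -0.05, against 0.01 over all spots.

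The same limit held for flaxseed among irradiated mice. The combined group could exceed radiation alone by at most 0.02 in gene7022, 0.03 in gene6399 and 0.24 at the median of the 12 on the rule's scale. Against radiation alone 0 of 12 members passed in limma in the combined group (0% of all spots), and 0 had an unadjusted p under 0.05 (5.4% of all spots). The smallest p among higher members belonged to gene1546 at 0.25 ± 0.17 (log2, SE; limma adjusted p = 0.966), and gene3965 followed at 0.08 ± 0.26. Among lower members it belonged to gene5005 at -0.32 ± 0.24 (limma adjusted p = 0.992), and gene6057 followed at -0.23 ± 0.18. The median over the 12 was 0.02, against 0.00 over all spots.

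Radiation alone was held near untreated by the rule, on the table's scale. On the quantile-normalized scale 11 of 12 members had a lower mean with radiation, while gene7022 was higher by 0.12. The median of the 12 was -0.08 and the lowest -0.30 (log2). Over all spots 52.4% had a higher mean with radiation, with a median of 0.01. On the rule's scale gene3965 and gene5478 were higher too, by 0.01 and 0.04, and gene7022 by 0.18. The spread of single irradiated arrays was wider than the median difference of the members. The mean of 11 members, each centred over its 20 arrays, ran from -0.59 to 0.01 in irradiated lungs, from -0.27 to 0.07 in untreated lungs and from -0.50 to -0.22 with both treatments. In flaxseed-fed lungs it ran from 0.62 to 1.01, so the flaxseed arrays lay apart as a group, as the choice of members requires.

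**Figure D3:**
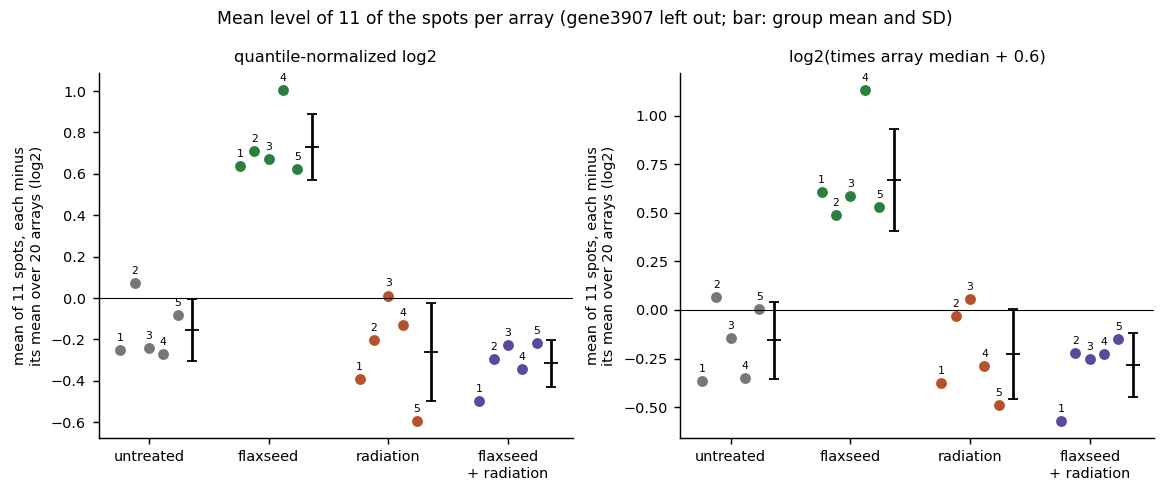
Mean of 11 members per array (gene3907 left out), each spot centred on its mean over 20 arrays, in quantile-normalized log2 (left) and in log2(multiple of the array median + 0.6) (right); numbers are replicates and bars are group mean and SD (n = 5). Flaxseed replicate 4 stands highest, at 1.01 on the left and 1.13 on the right.

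Within the flaxseed group replicate 4 stood apart from the others. It was the highest flaxseed array in 6 of these 11 members and the lowest in 0. Its member mean was 1.01 after quantile normalization and 1.13 as multiples of the array median (log2), against 0.62 to 0.71 and 0.49 to 0.61 in replicates 1, 2, 3 and 5. Over the brightest 1920 spots the same array stood at 0.03 on the scale of multiples, again the highest of the flaxseed group. Replicates 1, 2, 3 and 5 ran there from -0.22 (replicate 2) to -0.03 (replicate 1). After quantile normalization the brightest 1920 spots stood at -0.019 on replicate 4, against -0.030 (replicate 2) to 0.005 (replicate 5) on the others. Why the members stood highest on replicate 4 was not tested. Within groups the members moved together only loosely, with a median correlation of 0.13 over 55 pairs of spots and 20 arrays, and from -0.35 to 0.66. The median was 0.00 over pairs of the brightest 1920 spots. These spots share arrays and normalization, and no test was made.

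Which spots met the rule depended on single arrays. Without flaxseed replicate 4 the rule found 6 spots, of which 3 (gene3907, gene3965 and gene5005) were among the 12. Without flaxseed replicates 2, 3 or 5 it found 28, 23 and 23, of which 10, 12 and 11 were among the 12, and without untreated replicate 3 it found 19. The number lay between 8 and 16 when any other array was left out. Spots gene3965 and gene5005 were kept in all 20 repeats, gene5478 and gene3907 in 19, and the remaining 8 in 11 (gene7022) to 17 (gene1546).

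**Figure D4:**
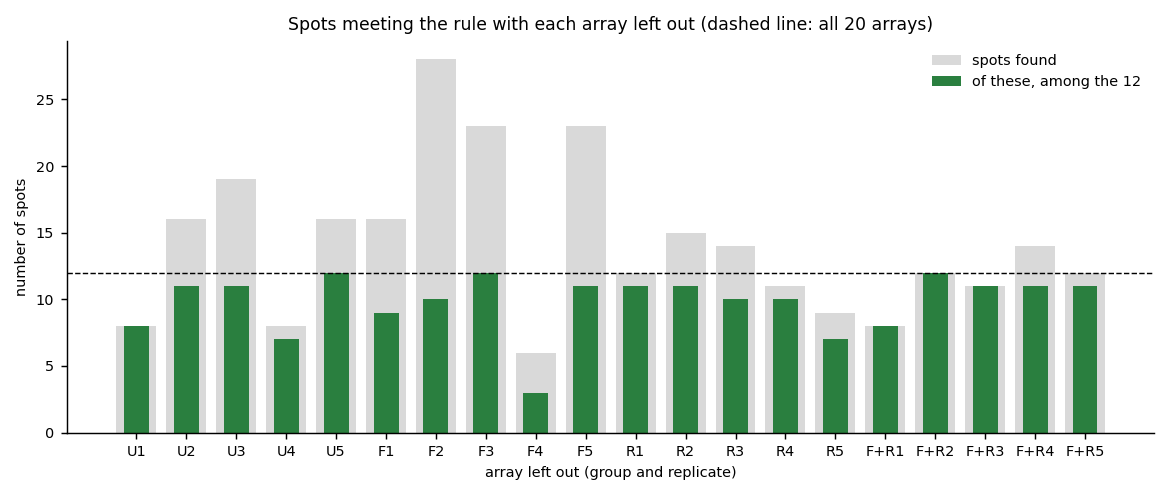
Number of spots meeting the rule when each array is left out (grey bars) and how many of them are among the 12 (green bars); the dashed line marks the 12 found with all arrays. Without flaxseed replicate 4 the bars fall to 6 and 3.

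To see the difference in arrays that had no part in the choice, the rule was applied without 1 flaxseed array and 1 array of another group, for all 75 such pairs. It then found 5 to 37 spots, and the median over those spots of the difference between the 2 arrays left out was taken. By this median the flaxseed array was the higher in 72 of 75 pairs. The median over pairs was 0.41 on the rule's log2 scale, the lowest -0.15 and the highest 1.18. Counted by spot, the flaxseed array was higher in 72.4% of 1437 cases, with the same spots counted in many pairs. Many spots found were not among the 12. With flaxseed replicate 2 and untreated replicate 3 left out, 11 of the 37 spots found were members. Only 12 of 75 pairs passed the margin of 0.7 that the arrays used in the choice had to pass on average. By the group of the other array the median was 0.25 against untreated, 0.41 against radiation and 0.56 against the combined group. The 3 pairs at or under 0 were all against untreated lungs. After quantile normalization all 75 pairs were above 0, with a median of 0.49. The pairs share arrays, and no share over all spots is given beside these counts, so they are descriptions without a test.

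The rule narrowed the array in uneven steps. Flaxseed exceeded untreated by the margin in 48 spots, radiation in 160 and the combined group in 172. Only 21 spots exceeded both untreated and radiation, 17 exceeded all 3 groups, and 12 of those also had radiation within 0.4 of untreated. The 5 spots dropped at the last step, gene7254, gene2193, gene8927, gene6814 and gene8239, had radiation minus untreated between -1.93 and -0.47. Just inside the margin lay gene4725, gene7022 and gene6399 with 0.717, 0.705 and 0.704, and just outside gene4872, gene2854 and gene4884 with 0.697, 0.697 and 0.686. The margin thus divides spots with nearly equal values.

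Fewer spots had this shape in the other groups, and the difference was not tested. With the same margin and no condition on radiation, 1 spot stood above the other 3 groups in untreated lungs, 1 in irradiated lungs and 4 with both treatments, against 17 with flaxseed alone. Spots standing below the others with flaxseed alone were more numerous on the table's scale, 107 without and 93 with the condition on radiation. The balance between higher and lower spots depended on the scale, with 36 above and 74 below after quantile normalization. On that scale the rule found 27 spots, which included all 12.

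Local background, the brightness read around each spot, was also higher at the members in flaxseed-fed lungs. It exceeded the mean of the 3 other groups at all 12 members, by 0.16 (gene5005) to 0.64 (gene6521) in log2, with a median of 0.43 against 0.00 over all spots. The rule used values net of this background and the same groups, so the counts that follow are description. Against untreated 0 of 12 members passed in limma (0% of all spots), and 8 of 12 had an unadjusted p under 0.05 (5.59% of all spots). Against the combined group gene6057 passed, at 0.77 ± 0.17 (log2, SE), that is 1 of 12 members (0.24% of all spots), and 6 of 12 had an unadjusted p under 0.05 (9.04%). The call at gene6057 was lost when any 1 flaxseed array but replicate 2, any 1 combined array, or radiation replicate 1 was left out, with 0 of 12 in each case.

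Local background followed signal among the brightest spots. Across the 1920 brightest spots the flaxseed differences of signal and of local background had a Pearson correlation of 0.80 across spots, which share arrays. The 48 other spots among them with a flaxseed difference above the lowest member had a median local background difference of 0.59, with a range that held all 12 members. Without any background correction the member differences were as large as with it, with medians of 0.90 against untreated and 1.07 against the combined group (log2). The part of local background in the members' differences was not tested further.

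**Figure D5:**
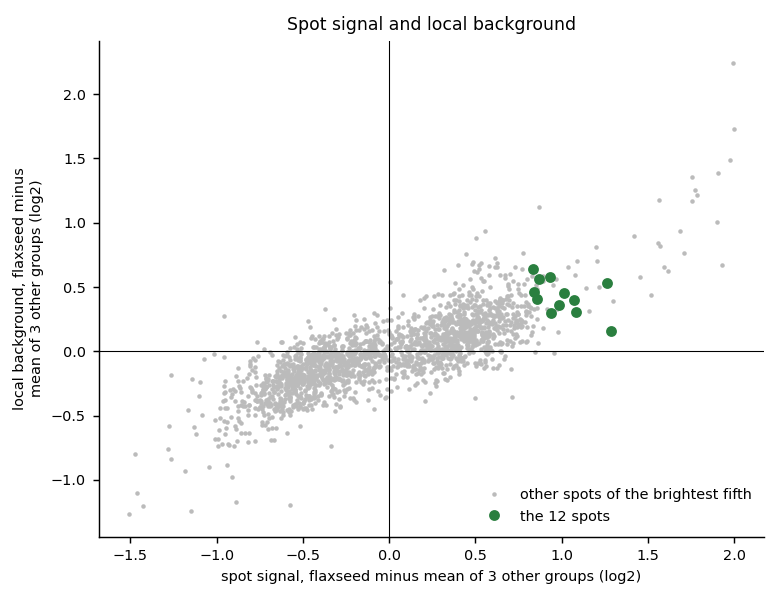
Flaxseed minus the mean of the 3 other groups for spot signal (horizontal, log2) and local background (vertical, log2), for the 12 members (green) and the other spots among the brightest 1920 (grey). The members lie at 0.83 to 1.29 in signal and 0.16 to 0.64 in local background. Spot gene5005, at 1.29 and 0.16, lies below the grey points of similar signal, and the others lie among the grey points. Spots gene3907 and gene5005 are dimmer than those 1920.

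Spot numbers can be read as 16 blocks of 24 rows and 25 columns, which is assumed to be the printed layout. The members lay in 8 blocks, 11 rows and 9 columns, with at most 3 in a block (block 11) and at most 2 in a row or column, and no 2 of them were neighbours. In the 9 columns that held members, the column mean of the flaxseed difference ran from -0.07 (column 7, with gene3907 and gene6057) to 0.15 (column 25, with gene4725). Over all 25 columns the lowest was -0.15, in column 13. The 47 spots next to a member had a median flaxseed difference of 0.07 (log2), 29 of them above 0, against 0.00 over all spots. In 2 cases a bright neighbour had a difference almost as large, gene1547 at 0.81 beside gene1546 and gene6056 at 0.71 beside gene6057. Whether signal spread between such neighbours was not tested. The highest neighbour of gene3907 stood at 0.02, that of gene7345 at 0.05 and that of gene6399 at -0.04.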

How the data were processed

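RNA of 20 mouse lungs was measured on 1 array each. Per the file headers, the authors' scanner files give a signal median and a local background median per spot as intensity on a linear scale. Values of the deposited table are intensity ratios: subtracting background from signal and scaling by the median of the array gave the same number (tolerance 0.001) at 95.9% to 97.7% of spots on every array, and at 240 of 240 member values. The labels do not name the scanner or image software. Table rows were matched to the scanner files by order. For radiation, the table columns of replicates 4 and 5 are exchanged (18 of 20 columns match their own array), so values per array come from the scanner files, and group means are unaffected. The table holds 0 columns of other samples.

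The rule was applied to the table with a pseudocount of 0.6. Tests used the scanner files, corrected by normexp (offset 50), quantile normalized and taken as log2, with limma 3.58.1 in R 4.3.3. One fit held all 4 groups of 5 arrays, with 16 residual and 2.76 prior degrees of freedom. Tests were two-sided, with Benjamini-Hochberg adjustment across 9600 spots and a threshold of 0.05. Local background was tested likewise as log2(value + 1) with arrays brought to a common median. The fit was run on simulated data with normally distributed noise and known changes planted in the combined group only. That check does not cover outlying arrays such as that of gene3907. Precision is limited by 5 arrays per group. The mice are labelled as separate animals, numbered 1 to 20; replicates were numbered within groups and pair nothing.

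Named spots are all 12 members, the spots nearest the margin, spots dropped by the condition on radiation, and the neighbours with the largest difference; the last 2 kinds were chosen after their values were seen. The members and the comparisons were chosen with earlier results of these data known. Gene lists and cell markers could not be applied to unnamed spots. The alternatives were other scalings and background corrections, pseudocounts, margins and filters, and arrays left out in turn.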

Additional observations from a re-analysis of the deposited data

Results flagged for a closer look

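In 48 sets of 5 values (12 members in 4 groups, quantile-normalized log2), 3 held a lone value far from the other 4. In unchosen sets chance gives about 2.4 (1 in 20). The members were chosen on these same arrays, so that figure may not hold here. Spot gene3907 stood at 12.55 in flaxseed replicate 5, against 7.50 to 8.21 in the other flaxseed arrays. Spot gene3965 stood at 8.81 in flaxseed replicate 5, against 9.90 to 10.00. Spot gene7345 stood at 10.66 in combined replicate 4, against 9.94 to 10.13.

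In 5 members the mean flaxseed change was above 0 without radiation and below 0 with it, and none of the 5 passed in limma among irradiated mice. In 2 of them every array agreed, with all 5 flaxseed arrays above the untreated mean and all 5 combined arrays below the radiation mean. For gene5005 the changes were 1.08 without and -0.32 with radiation, and for gene1655 they were 0.82 and -0.22 (log2). The difference was not tested, since the rule fixed the first change and the level of the combined group relative to it.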

How the results depend on the processing

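The number of spots meeting the rule was within 1.5 times the 12 in 19 of 30 settings. It was 6 with a pseudocount of 1.2, 2 with a margin of 1, 95 with a margin of 0.5, 27 with normexp and quantile normalization, 7 with normexp and a common median, and 30 with the table quantile normalized. Of the 12, 12 were kept at the margin of 0.5 and in both quantile settings, 6 with the larger pseudocount and 5 with the common median. It was 16 with a pseudocount of 0.3. In settings added after the data were seen it was 15 with position means removed (9 of the 12 kept), 13 with group medians (5 kept) and 12 without flaxseed replicates 4 and 5 (3 kept). It ran from 6 to 28 with single arrays left out. The count of members with all flaxseed arrays above the 15 others was 2 with common median scaling, 2 with the authors' table, 5 or 6 in the other scalings and 5 to 7 with arrays left out. In all 6 scalings the flaxseed mean was above the other 3 groups in 12 of 12 members. They were chosen for that order on the same arrays, so this count says nothing about stability either. No member passed for the combined group against untreated or radiation in limma in any of 29 settings each, with 0 to 2 and 0 to 1 members at an unadjusted p under 0.05; the rule limited a rise in both beforehand, so these counts say nothing about stability. For local background the count against untreated stayed at 0, and against the combined group it was 0 without centring and 0 to 1 with arrays left out. No paired analysis was possible because the labels give no number shared between groups. The offset and 5 arrays per group limit what could be seen in dim spots.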
